A study of Xenopus laevis with 12 samples.

Results

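In brains of *Xenopus laevis* tadpoles, 125 of the 51041 genes listed stood below the control brains when embryos had grown in the amniotic mixture, a blend of pollutants measured in amniotic fluid, and above them when embryos had grown in thyroxine (T4). The genes were chosen by their values. A gene belonged to the group when its mean Control level was at least 5 CPM (counts of a gene per 1000000 reads on genes), when all 4 mixture samples were below all 4 Control samples with a mean difference of at most −0.30, and when all 4 T4 samples were above all 4 Control samples with a mean difference of at least 0.30. Differences are on the log2(CPM + 0.5) scale. Both directions and the lack of overlap between groups were therefore fixed by the choice, and they are described here without a test. Each exposure was set against the same 4 Control samples.

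Embryos were kept from fertilization to stage NF 47 in the amniotic mixture at 1x (the concentrations measured in amniotic fluid), in T4 at 10 nM, or in the solvent alone. The groups are called Mixture, T4 and Control. The same amount of the solvent DMSO was present in all groups, exposure lasted 8 days in the dark with daily renewal, and the labels name no transgene or mutation. Each group held 4 samples, and each sample was a pool of 2 whole brains from 2 tadpoles. The methods name 2 breedings, and the labels do not give the breeding of a sample. p-values thus measure the spread between pools. In bulk brain RNA, fewer cells of a type and less RNA per cell cannot be told apart.

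T4 is the main form in which thyroid hormone circulates. Cells remove an iodine from it to make T3, which binds thyroid hormone receptors in the nucleus and switches the transcription of target genes. In amphibians the hormone drives metamorphosis, and the tadpole brain can respond to added hormone before the thyroid gland is active. The mixture holds phenols, phthalates, pesticides, metals and halogenated compounds, several of them suspected to disturb thyroid signaling. Many *X. laevis* genes exist in L and S copies. A read that fits both copies equally well was dropped by the mapping, which leaves the level of such copies uncertain.

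The deposited tables list genes by number. None of the 51041 numbers (0) matched the 44456 genes of the RefSeq table at hand, so functions, L and S copies, marker genes of brain cell types and sequences could not be given for the group. The sample type could not be checked against brain markers for the same reason. By a rule fixed with the design, 4 gene numbers are printed, and the other members are given by ranges and counts. The samples held from 10420292 to 11685566 reads on genes, and 3 counts corresponded to at most 0.288 CPM. The lowest count of any member in any sample was 21, so every member was measured well above that floor in all 12 samples.

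The choice started from 20971 genes with a mean Control level of at least 5 CPM. Of these, 953 (4.54%) met the mixture part of the rule, and 2226 (10.6%) met the T4 part. The 125 members were 13.1% of the genes lowered by the mixture and 5.62% of the genes raised by T4. With the same limits, 138 genes were lower after both exposures, 13 were higher after both, and 3 were higher after the mixture and lower after T4. The 138 became 93 with TMM-scaled library sizes and 97 with DESeq2 size factors, and the 13 became 19 with either. The genes that met the rule of the group were then 117 and 114, so which of these 2 lists was longer depended on the scaling. Genes above Control after the mixture numbered 56 (0.267%) past the same limits, but 103 with TMM-scaled library sizes and 100 with DESeq2 size factors, under either of which the genes higher after the mixture and lower after T4 were 5. With the sums of gene rows, 1807 genes (8.62%) were below Control after T4. Of the genes past the limits after T4 in either direction, 55.2% were thus higher, and 66.1% with TMM-scaled library sizes, under which 99 of the 125 members met the rule among 117 genes. The members nearest to the limits barely passed them. The smallest mixture difference inside was −0.3005 and the nearest outside was −0.29998, while for T4 the values were 0.3003 and 0.298. Another 75 genes missed only the limit on the mixture difference and 42 only that on the T4 difference.

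**Figure D1:**
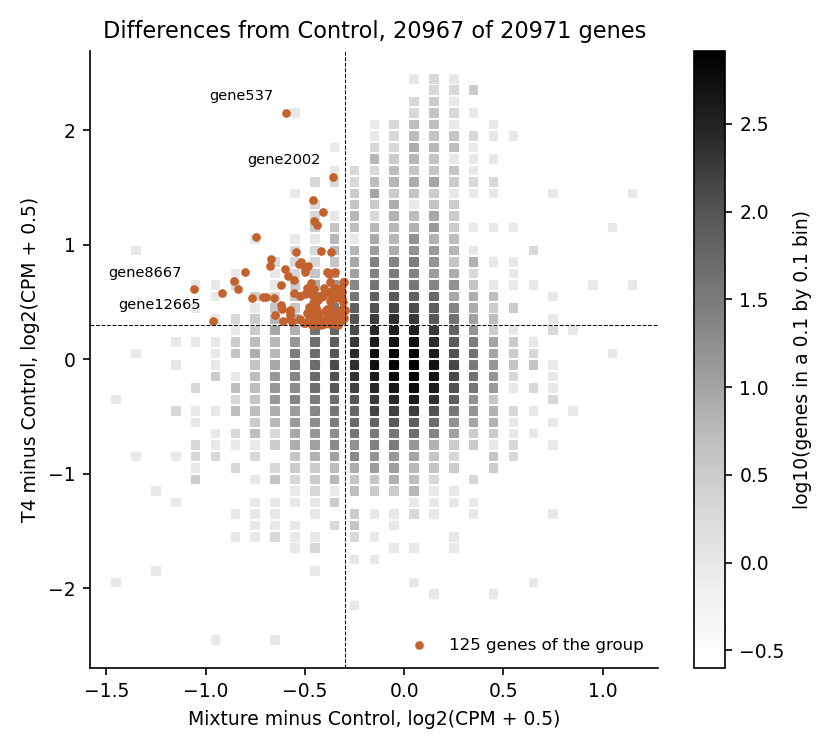
Difference of the Mixture mean from the Control mean (horizontal) against the difference of the T4 mean from the Control mean (vertical), both on the log2(CPM + 0.5) scale. Grey squares count genes with at least 5 CPM in Control (20967 of 20971 fall in the plotted range), dots are the 125 members, and dashed lines are the limits of −0.3 and 0.3. The members lie in the upper left corner, most of them close to the limits, with gene537 far above the rest. Grey squares in that corner also hold genes past both limits that are not members, because their samples overlapped between groups.

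The members were lower by a modest amount after the mixture. Their differences spread more widely after T4, as did those of all 20971 genes. Their median mixture difference was −0.43 (quartiles −0.52 and −0.36), and the most lowered member was at −1.06. Over all 20971 genes the median mixture difference was −0.02 (quartiles −0.15 and 0.08). Their median T4 difference was 0.53 (quartiles 0.37 and 0.63), and the highest was 2.15. Over all 20971 genes the median T4 difference was −0.04 (quartiles −0.21 and 0.15). In linear terms, the median member was at 0.740 times the Control level after the mixture and at 1.44 times that level after T4. The T4 level exceeded the mixture level 1.93-fold in the median member, and at least 2-fold in 48 members. The T4 difference was the larger of the pair in 76 members and the mixture difference in 49. The same comparison over all genes is not given here. At least 0.50 in size in both directions was reached by 22 members.

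Only 1 member, gene8667, was more than 2-fold below Control after the mixture. It had 5.18, 6.77, 2.88 and 4.79 CPM in Mixture samples 5 to 8, 15.1, 14.4, 18.8 and 16.4 CPM in T4 samples 9 to 12, and 11.2, 12.0, 8.65 and 9.87 CPM in Control samples 1 to 4. The lowest value, in Mixture sample 7, rested on 31 counts. The group means of gene8667 were 4.91 ± 1.60 CPM after the mixture, 16.2 ± 1.93 CPM after T4 and 10.4 ± 1.49 CPM in Control (SD, n = 4 samples each). Its mixture difference was −1.06 and its T4 difference 0.61. In this gene the mixture side was thus the larger.

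The next lowest after the mixture was gene12665, with a mixture difference of −0.96 and a T4 difference of 0.33. It had 7.49, 9.18, 6.13 and 7.02 CPM in Mixture samples 5 to 8, 16.9, 17.9, 20.8 and 20.0 CPM in T4 samples 9 to 12, and 16.3, 14.1, 15.0 and 14.0 CPM in Control samples 1 to 4. The Mixture samples of gene12665 lay far below all others, while T4 sample 9 lay just above Control sample 1. The means were 7.45 ± 1.28 CPM after the mixture, 18.9 ± 1.82 CPM after T4 and 14.9 ± 1.07 CPM in Control (SD, n = 4 samples each).

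The largest T4 difference was that of gene537, at 2.15, with a mixture difference of −0.59. It had 24.0, 25.9, 17.4 and 21.7 CPM in Mixture samples 5 to 8, 148, 148, 152 and 153 CPM in T4 samples 9 to 12, and 29.9, 29.1, 39.1 and 36.9 CPM in Control samples 1 to 4. The T4 samples of gene537 were close to each other and over 3 times any other sample, while Mixture sample 6 and Control sample 2 were neighbours. The means were 22.2 ± 3.66 CPM after the mixture, 151 ± 2.80 CPM after T4 and 33.8 ± 5.00 CPM in Control (SD, n = 4 samples each). The T4 mean was 4.45 times the Control level and 6.71 times the mixture level on the log2 scale above.

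The second largest T4 difference was that of gene2002, at 1.59, with a mixture difference of −0.36. It had 13.8, 15.0, 10.3 and 14.9 CPM in Mixture samples 5 to 8, 53.6, 52.1, 51.4 and 55.4 CPM in T4 samples 9 to 12, and 17.0, 16.5, 19.1 and 16.5 CPM in Control samples 1 to 4. In gene2002 as in gene8667, gene12665 and gene537, Mixture sample 7 was the lowest of the 12. The means were 13.5 ± 2.202 CPM after the mixture, 53.1 ± 1.79 CPM after T4 and 17.3 ± 1.23 CPM in Control (SD, n = 4 samples each).

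**Figure D2:**
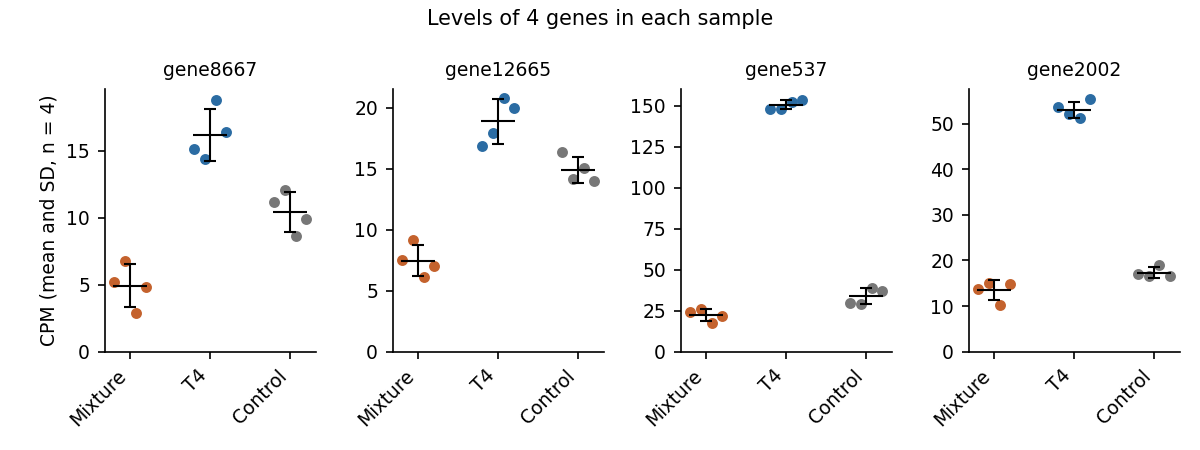
Levels of gene8667, gene12665, gene537 and gene2002 in CPM, from 0, in each Mixture, T4 and Control sample (dots), with the mean and SD of 4 samples (bars). gene8667 and gene12665 stand out by their low Mixture values (means 4.91 and 7.45 CPM), and gene537 and gene2002 by their high T4 values (means 151 and 53.1 CPM).

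Besides gene537 and gene2002, another 5 members were at least 2-fold higher after T4 than in Control, 7 in all. Their T4 differences were between 1.07 and 2.15 and their mixture differences between −0.75 and −0.36, with a median of −0.45. The 59 members with T4 differences between 0.50 and 0.94 had a median mixture difference of −0.45, and the 59 with smaller T4 differences had one of −0.42. Both differences were limited by the rule, so these medians describe the members and show no relation between the exposures.

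The members were genes of low to moderate level. Their median Control level was 17.2 CPM (5.19 to 52.6 CPM), against 31.3 CPM over the 20971 genes from which they were chosen. Only 2 members (1.60%) had 50 CPM or more in Control, against 31.2% of those genes, and 23 members (18.4%) had less than 10 CPM, against 14.8%. Other genes past the same limits were also below that level in the median. It was 19.6 CPM for the 828 genes lowered by the mixture that were not members, 15.0 CPM for the 138 genes lowered by both exposures and 23.9 CPM for the 2101 genes raised by T4 that were not members. These are levels per gene without correction for gene length. The within-group SD of the members was 0.15 in the median on the log2(CPM + 0.5) scale, against 0.14 for the 20971 genes. For the members it was 0.18 in the Mixture group, 0.12 in the T4 group and 0.12 in the Control group. For the 20971 genes it was 0.13 in each of these groups, so the median of the members was the higher in Mixture only. The rule asks for groups that do not overlap, which limits these spreads. How far it does so was not tested, and the SD of the other lists is not given here.

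Added together, the members held 1590 to 1954 CPM in the Mixture samples, 3550 to 3817 CPM in the T4 samples and 2358 to 2514 CPM in the Control samples. The sums were 1806 ± 164 CPM after the mixture, 3683 ± 126 CPM after T4 and 2465 ± 72.6 CPM in Control (SD, n = 4 samples each). The median member, set against its Control mean, was at −0.31, −0.35, −0.57 and −0.47 in Mixture samples 5 to 8 and at 0.44, 0.46, 0.55 and 0.56 in T4 samples 9 to 12. In Control samples 1 to 4 it was at −0.07, 0.02, 0.03 and 0.00. All 125 members lay below their Control mean in each Mixture sample and above it in each T4 sample, as the choice requires. Within groups the samples were not alike. Mixture sample 7 was the lowest Mixture sample in 81 members (64.8%), against 30.4% of the 20971 genes. That share was 46.5% in the 828 other genes lowered by the mixture. It was 31.9% in the 138 genes lowered by both exposures and 51.1% in the 2101 other genes raised by T4. Control sample 1 was the lowest Control sample in 53 members (42.4%), against 26.5% of the 20971 genes.

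**Figure D3:**
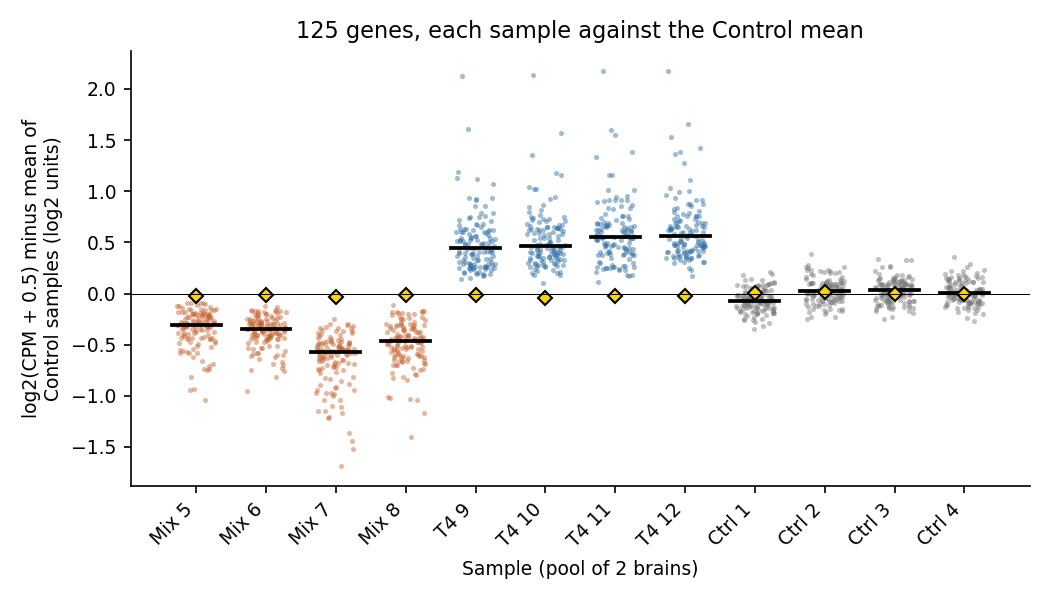
Each dot is 1 of the 125 members in 1 sample, as log2(CPM + 0.5) minus the mean of the Control samples, for the Mixture, T4 and Control samples in turn. Black bars are the medians of the members, and diamonds the medians of 20971 genes. The member medians lie between −0.57 and −0.31 in the Mixture samples, between 0.44 and 0.56 in the T4 samples and between −0.07 and 0.03 in the Control samples, while the medians of all genes stay close to 0.

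Pairs of members moved together within groups more than pairs of all genes did. After the group means were taken out, the median correlation over 7750 pairs of members was 0.299 across the 12 samples, and 27.4% of the pairs were above 0.5. Over all pairs of the 20971 genes the median was 0.005 and 10.9% were above 0.5. This is a description of genes that share their libraries, and a sample with large deviations, such as Mixture sample 7, enters every pair. Correlations within the other lists are not given here, so the higher median is not read as a trait of the members.

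By edgeR's quasi-likelihood test on the counts, with TMM scaling and Benjamini-Hochberg adjustment over 27141 genes, 19 members (15.2%) had an adjusted p under 0.05 as lower in Mixture than in Control, where 0.479% of all genes tested were called lower. As higher in T4 than in Control, 121 members were called, where 14.7% of all genes tested were called higher. As lower in Mixture than in T4, 125 members were called, where 19.9% of all genes tested were. The members were chosen on these contrasts, so that nothing further is read from the counts. The 19 members were called in both comparisons with Control. They had mixture differences from −1.06 to −0.36 and Control levels from 6.66 to 52.6 CPM. At an unadjusted p under 0.05 by the same test, 123 of the members were lower after the mixture. Of all genes tested, 15.5% had such a p in either direction. The rule used this contrast too, so nothing is read from the 123.

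The number of members called after the mixture depended on each sample. It was 10, 9, 0 and 0 without Mixture samples 5 to 8 in turn, 7, 4, 10 and 7 without T4 samples 9 to 12, and 4, 1, 0 and 2 without Control samples 1 to 4. When only the Mixture and Control samples were fitted, 0 members were called by edgeR and 117 had an unadjusted p under 0.05. The cause of these changes was not tested. DESeq2 on all 12 samples called 58 members, and edgeR with the set of samples described next as a factor called 50. With 1 sample left out, the T4 calls ranged from 104 to 123, and the 125 calls between Mixture and T4 stayed at 125 each time. The shares of all genes called under these other settings are not given here. The counts are thus not read as a trait of the members.

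The 12 samples fell into 2 sets of 6 on component 2 of a PCA made here from the counts, which held 20.5% of the variance. The methods describe a batch effect on component 2 of the authors' own PCA, without naming the samples on each side. Mixture samples 5 and 6, T4 samples 9 and 10 and Control samples 1 and 2 were in the first set, and the other samples in the second. Few members differed in level between the sets. In a fit with terms for group and set, 3 of 125 members (2.40%) differed at an adjusted p under 0.05 by edgeR's quasi-likelihood test, against 13.4% of the 27141 genes tested. All 3 were lower in the second set, by log2 differences from −0.53 to −0.20 and adjusted p from 0.00699 to 0.0350 by edgeR. This count was 1 without Control sample 1 or 3 or without any one of the 4 Mixture samples. It was 4 without T4 sample 11 and 2 without any other single sample. The shares of all genes called in these fits are not given here. The rule asks for groups that do not overlap, which a gene with a large difference between sets is less likely to meet. How far the rule bears on the low share among the members was not tested.

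The mixture difference of the members was larger in the second set, while the T4 difference was similar in both. The median mixture difference was −0.32 within the first set (quartiles −0.40 and −0.24) and −0.58 within the second (quartiles −0.67 and −0.45), each from 2 Mixture and 2 Control samples. It was the lower of the 2 in the second set for 111 members (88.8%), against 50.5% of the 20971 genes. The median T4 difference was 0.48 within the first set and 0.51 within the second. Both directions within each set were fixed for all 125 members by the lack of overlap between groups that the rule requires, and only the sizes of the differences could vary. The difference of the mixture effect between sets was tested as an interaction with 6 residual degrees of freedom. By edgeR's quasi-likelihood test 0 members passed after adjustment, the lowest adjusted p being 0.527, and 0 of all 27141 genes passed (0%). At an unadjusted p under 0.05 there were 28 members (22.4%) and 8.11% of all genes, and DESeq2 called 0 members, with 13 at an unadjusted p under 0.05. For the T4 effect, edgeR and DESeq2 each called 0 members, with 6 (4.80%) and 2 at an unadjusted p under 0.05, where 8.53% of all genes had one by edgeR and 0% passed after adjustment. The shares of all genes by DESeq2 are not given here, so its 13 and 2 members are not read as a trait of the group.

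**Figure D4:**
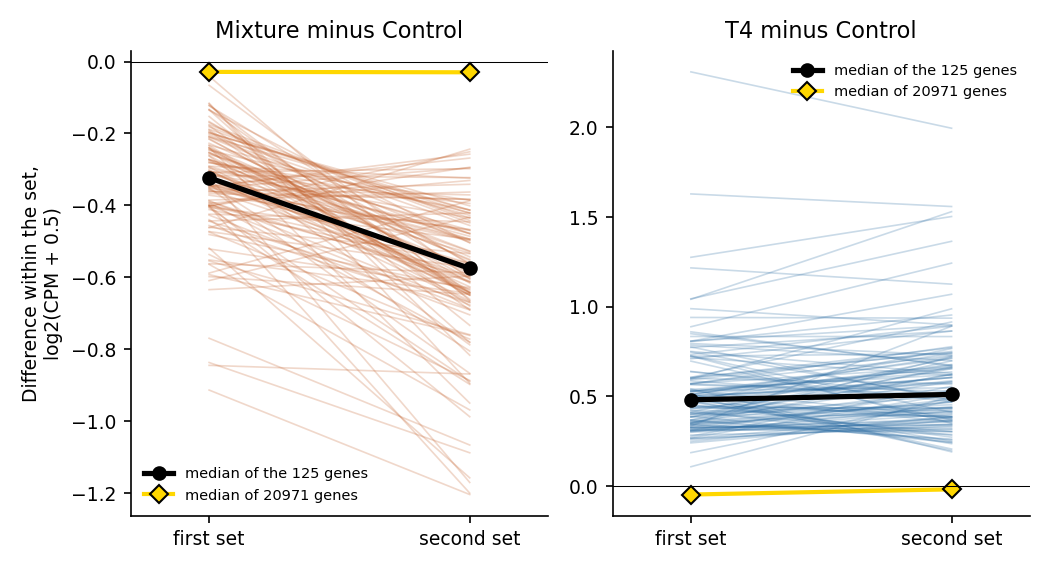
Mixture minus Control (left) and T4 minus Control (right) within the first and the second set of 6 samples, on the log2(CPM + 0.5) scale. Thin lines are the 125 members, black circles their medians and diamonds the medians of 20971 genes. The mixture line slopes down in 111 of the 125 members. The member medians are −0.32 and −0.58 for the mixture and 0.48 and 0.51 for T4.

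The larger mixture difference in the second set was also seen in genes outside the group. For the 828 other genes lowered by the mixture the medians were −0.37 in the first set and −0.51 in the second, and 76.4% of them were lower in the second. For the 138 genes lowered by both exposures the medians were −0.42 and −0.48. The 2101 other genes raised by T4 had a median mixture difference of 0.00 in the first set and −0.08 in the second, and Mixture sample 7 was the lowest Mixture sample in 51.1% of them. These lists were made after seeing the data, and differences between them were not tested. When Mixture sample 7 was left out, 101 genes met the rule, and 96 of them were members.

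Whether the pattern held in samples that took no part in the choice was asked first between the sets, which share no samples. Chosen on the first set alone, by the same limits on 2 samples a group, 147 genes met the rule. In the second set, 134 of them (91.2%) were lower after the mixture, against 54.8% of 21051 genes that could be chosen, and their median mixture difference was −0.41. After T4, 142 (96.6%) were higher, against 47.7%, with a median difference of 0.61. Both directions were kept by 129 genes (87.8%), against 25.9%. Genes chosen in the first set by the T4 part alone were lower after the mixture in the second set in 68.9% of 2522 cases, with a median of −0.11, and those chosen by the mixture part alone in 81.3% of 1429 cases, with a median of −0.31. Genes chosen by the T4 part alone were higher after T4 in the second set in 96.0%, about as often as the 147 genes. Their median T4 difference there was 0.48.

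Chosen on the second set alone, 495 genes met the rule, of which 105 were among the 125 members. In the first set, 418 of the 495 (84.4%) were lower after the mixture, against 57.2% of 20825 genes, with a median of −0.18. After T4, 484 (97.8%) were higher, against 43.8%, with a median of 0.43. Both directions were kept by 82.6%, against 22.3%. In this direction, genes chosen by the mixture part alone were lower after the mixture about as often, in 86.1% of 2238 cases, and those chosen by the T4 part alone in 51.4% of 2807. Those chosen by the T4 part alone were higher after T4 in 89.4%, with a median T4 difference of 0.35. In all, 74 genes met the rule in each set separately, which is 50.3% of the 147 and 14.9% of the 495. Of the 21051 genes that could be chosen in the first set, 2.28% met the rule in the second, and of the 20825 that could be chosen in the second, 0.672% met it in the first. Of the 74 genes, 54 were among the 125. Genes are not replicates, so these shares are a description.

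The same was asked of single samples. The rule was applied to 11 samples, and the genes chosen were looked at in the sample left out. A left-out Mixture sample was below the Control mean in 89.1% to 100% of the 101 to 184 genes chosen without it, against 52.5% to 56.3% of all genes that could be chosen. A left-out T4 sample was above it in 97.7% to 100% of 117 to 141 genes, against 43.7% to 47.7%. A left-out Control sample lay between the Mixture mean and the T4 mean in 94.3% to 98.6% of 129 to 157 genes, against 21.2% to 23.5%. When no overlap with the other groups was allowed, as in the rule, the shares were lower. Mixture samples left out were below all 4 Control samples in 71.7% to 96.0%, against 26.0% to 32.8%. T4 samples left out were above all 4 in 90.8% to 99.1%, against 26.8% to 30.6%. Control samples left out were above every Mixture and below every T4 sample in 75.2% to 89.9%, against 5.77% to 7.75%. The other 11 samples are common to the choice and the look, so these values are less separate than those between sets. Left-out Mixture and T4 samples were set against Control samples that had themselves taken part in the choice. How far this raised their shares was not tested. For Control samples a high share follows largely from the choice, because the rule holds the Mixture and T4 means of chosen genes apart. The median Mixture minus T4 difference was −0.95 in the 125 members and −0.002 in the 20971 genes. The lowest share on the same side, 89.1%, was that of Mixture sample 5, for which it held in 164 of 184 genes.

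**Figure D5:**
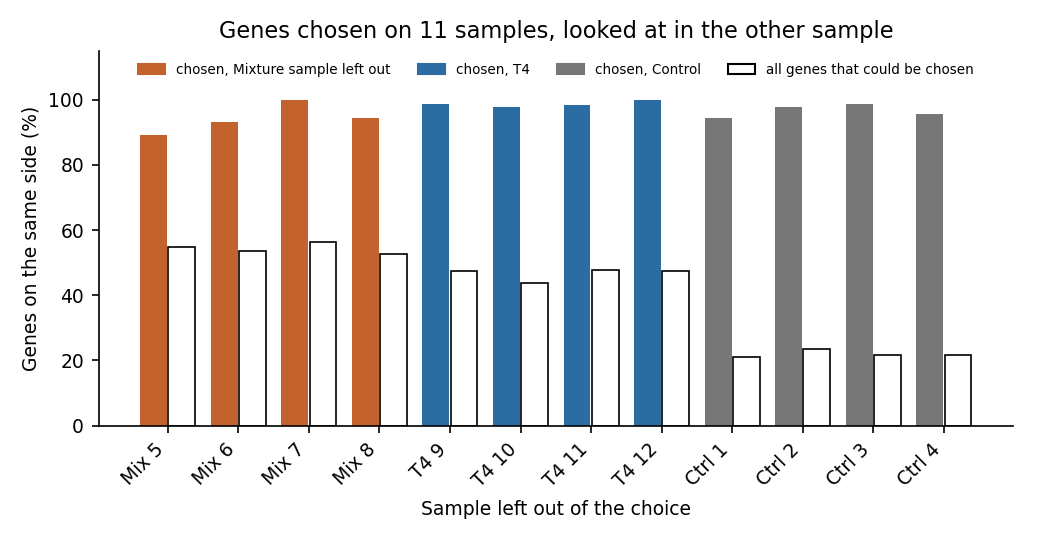
Share of genes, in %, that a sample left out of the choice placed on the same side (Mixture samples below the Control mean, T4 samples above it, Control samples between the other means). Filled bars are genes chosen on the other 11 samples, and open bars are all genes that could be chosen. The filled bars run from 89.1% to 100%, and the open bars from 21.2% to 56.3%. High filled bars of the Control samples follow largely from the choice. The Mixture and T4 bars rest on a Control mean that also took part in the choice.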

How the data were processed

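Brain RNA of 12 pools was sequenced as stranded libraries. The deposited values are counts, made by the authors from reads with duplicates removed, trimmed by 11 and 1 bases, kept at 64 bases (cutadapt version 1.15), mapped with Bowtie2 (version 2.2.4) to release 9.2 of the genome, kept where unique, and counted with HTSeq (version 0.9.1). The strand setting is not given in the sources used here, so genes overlapping on opposite strands are uncertain. The authors removed component 2 after counting, so the counts still hold it. The 5 totals that name no gene, 38.3% to 42.2% of reads, were left out. Samples of the same group were not copies (chi-square per degree of freedom 3.02 to 6.92 over 18 pairs).

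CPM was computed from the sum of gene rows, without further scaling. Tests used edgeR (version 4.0.16, R version 4.3.3) with TMM, filterByExpr (minimum count 10) and all 12 samples in 1 fit. DESeq2 (version 1.42.0) gave the PCA on variance stabilized counts of 38850 genes and alternative tests. The sets were the sides of component 2. Fits were tested on simulated data. Members, lists and tests were chosen with earlier results of these data known. The genes named are the 2 lowest after the mixture and the 2 highest after T4. Lists of thyroid signaling genes and cell type markers could not be applied to gene numbers. The number of members was not compared with relabelled samples. Floors cover counting error only. Figures used matplotlib (version 3.10.9).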

Additional observations from a re-analysis of the deposited data

Results flagged for a closer look

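In 21 groups of 4 samples (the 4 named genes, the most abundant member, the median of the members and their summed level), the gap between an end sample and its neighbour was compared with the range, and 2 groups passed Dixon's critical value at 95%. Chance flags about 1 in 20 groups. For gene2002 in Control the ratio was 0.832, because Control sample 3 had 19.1 CPM and the other Control samples 16.5 to 17.0 CPM. For the summed level of the 125 members in Control it was 0.836, because Control sample 1 had 2358 CPM and the others 2488 to 2514 CPM. The Mixture samples stayed below and the T4 samples above every Control sample in both measures, as the choice requires.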

How the results depend on the processing

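The number of members moved with the threshold on the differences, to 22 at 0.5 and 226 at 0.2. It was 114 to 134 under the other alternatives (TMM or DESeq2 size factors, a pseudocount of 1 CPM, a Control minimum of 1 CPM or none) and 101 to 184 with 1 sample left out. With TMM, the genes past the limits after the mixture were lower in 87.9%, in place of 94.4%. TMM moved the median difference of the 20971 genes to 0.01 after the mixture and to 0.00 after T4. The median mixture difference of the members was −0.58 within the second set, and otherwise −0.43 to −0.32 over the processing alternatives and the first set. The median T4 difference was 0.48 to 0.56 over the same settings. Members called after the mixture were 45 at an adjusted p under 0.1, 58 with DESeq2, 10 without a filter on low counts, 50 with the set as a factor, 0 with only the 2 groups, 20 with only the 2 groups and the set as a factor (chosen after seeing the data), and 0 to 10 with 1 sample left out. Members called between sets were 5 at an adjusted p under 0.1 and 1 to 4 with 1 sample left out. The cause of these changes was not tested. No other count of calls moved by over 1.5 times. The shares of all genes called under these settings are not given here, so the counts are not read as a trait of the members. A fit paired by replicate number was not possible because the labels number the samples 1 to 12 and the groups share no number, so the set was the only block fitted. The part of depth in the members' values was not tested, and their lowest count was 21.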

Other observations

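Genes raised by T4 outside the group also varied among the Mixture samples. The median of the 2101 genes raised by T4 that were not members, set against the Control mean on the log2(CPM + 0.5) scale, was 0.03, 0.01, −0.12 and −0.02 in Mixture samples 5 to 8 and −0.05, 0.06, 0.00 and −0.01 in Control samples 1 to 4. Mixture sample 7 was thus the lowest for these genes as for the members, and Control sample 1 was the lowest Control sample in both. The median of all 20971 genes was −0.04 in Mixture sample 7 and 0.00 in Control sample 1. The list was made after seeing the data and the pattern was not tested.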
